A study of Mus musculus with 5 samples.

Results

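RING1B is the catalytic subunit of Polycomb Repressive Complex 1 (PRC1), and the regions described here are the narrow RING1B peaks of control mouse embryonic fibroblasts (MEFs) that had no counterpart once a PRC2 inhibitor was expressed. They were chosen by 2 values of the peak lists themselves, width and overlap. A control peak was taken when its end minus its start was under 2000 bases and when it shared no base with any peak of the EZHIP list or of the H3.3 K27M list. This rule gave 221 of the 821 control peaks. Such peaks are called short lost peaks below. The other control peaks were the 303 lost peaks of 2000 bases or more, called wider lost peaks, and the 297 peaks that overlapped a peak in at least 1 of the other lists, called kept peaks.

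The MEFs came from a midgestation mouse embryo whose EED gene carried loxP sites around several exons, so that control, EZHIP and H3.3 K27M cells all shared the floxed EED allele. Control cells were the parental cells (EED floxed). The other cells were the same MEFs transduced with a lentivirus that drove human EZHIP or H3.3 K27M from the EF1a promoter, with puromycin selection for stable expression. Each group had 1 ChIP-Seq library, made from crosslinked, micrococcal nuclease treated chromatin with a RING1B antibody, so no comparison has a replicate check. Libraries of H3.3 K27R cells and of the EED deletion line, which was a single clone, were not analysed here. The lists give positions on mm9 without read counts or scores, and the depth behind a peak, and thus how weakly it was called, is unknown.

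PRC1 places ubiquitin on histone H2A, and PRC2 places methyl groups on lysine 27 of histone H3 (H3K27me3). Some forms of PRC1 bind H3K27me3 through a CBX subunit, whereas others reach unmethylated CpG islands through a protein that binds CpG. CpG islands are stretches rich in G, C and the CpG dinucleotide, found at the starts of many vertebrate genes, and Polycomb-bound islands are known above all from genes of developmental transcription factors. EZHIP and H3.3 K27M both inhibit PRC2. The question addressed here was which genes and which kind of sequence lay under the narrowest control RING1B peaks that were not called with either inhibitor.

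The sequences below show how far these peaks differed in CpG content. For each peak the run of 300 bases with the most CpG sites outside annotated untranslated regions is printed from the plus strand of NCBIM37, the assembly behind mm9, with every CpG in capitals. The peak at the start of Tle4, a Groucho family co-repressor, had the highest ratio of observed to expected CpG, and its window at chr19:14671597-14671896 held 47 CpG sites. The peak in Vldlr, which encodes a lipoprotein receptor, had the median ratio, and its window at chr19:27292105-27292404 held 32. The peak in an intron of BC023719, within the major histocompatibility complex, had the lowest ratio, and its window at chr17:36229850-36230149 held 0. The peak at Hoxd8, a homeobox gene, is added because it lay closest to a wide RING1B peak, and its window at chr2:74543609-74543908 held 49.
Tle4: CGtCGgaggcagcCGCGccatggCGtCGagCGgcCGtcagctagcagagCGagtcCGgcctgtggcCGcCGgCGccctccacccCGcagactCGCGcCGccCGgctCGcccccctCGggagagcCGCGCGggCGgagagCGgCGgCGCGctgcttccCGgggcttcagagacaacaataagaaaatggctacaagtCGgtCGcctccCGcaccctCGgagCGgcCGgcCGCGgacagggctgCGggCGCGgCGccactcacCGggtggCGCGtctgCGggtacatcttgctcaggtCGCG
Vldlr: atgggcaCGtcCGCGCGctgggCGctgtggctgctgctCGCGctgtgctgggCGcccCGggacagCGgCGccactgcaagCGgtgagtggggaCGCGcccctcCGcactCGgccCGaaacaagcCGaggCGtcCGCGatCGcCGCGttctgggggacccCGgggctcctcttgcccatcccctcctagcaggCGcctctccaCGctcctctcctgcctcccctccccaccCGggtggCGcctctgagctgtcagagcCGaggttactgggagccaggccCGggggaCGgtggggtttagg
BC023719 intron: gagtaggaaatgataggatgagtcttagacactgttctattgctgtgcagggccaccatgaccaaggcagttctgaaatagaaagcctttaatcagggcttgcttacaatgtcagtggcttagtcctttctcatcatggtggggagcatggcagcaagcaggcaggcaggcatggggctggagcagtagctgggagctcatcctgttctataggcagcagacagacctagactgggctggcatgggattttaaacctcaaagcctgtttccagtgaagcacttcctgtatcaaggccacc
Hoxd8: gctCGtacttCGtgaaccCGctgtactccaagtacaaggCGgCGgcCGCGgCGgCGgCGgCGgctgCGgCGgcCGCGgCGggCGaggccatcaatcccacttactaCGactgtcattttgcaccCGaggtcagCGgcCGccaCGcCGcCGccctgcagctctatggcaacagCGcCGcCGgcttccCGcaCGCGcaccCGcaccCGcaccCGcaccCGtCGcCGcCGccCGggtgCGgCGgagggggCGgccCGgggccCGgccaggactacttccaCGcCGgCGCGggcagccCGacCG

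The short lost peaks came in 5 widths, since peaks were built from bins of 200 bases. There were 55 of 1199 bases, 43 of 1399 bases, 45 of 1599 bases, 37 of 1799 bases and 41 of 1999 bases. All 1418 ends in the 3 lists lay 1 base before a multiple of 200, so the end may itself belong to the peak. Each width would then be 1 base larger, the 41 peaks of 1999 bases would fall outside the rule and 180 would remain, among them no Hoxd8 peak. Of these 180, 58.9% held a gene start and 87.8% an island, and their median CpG ratio was 0.78. Of the 238 control peaks under 2000 bases, 92.9% were lost, against 63.8% of control peaks of all widths. As width and loss define the set, nothing is read from this share. Just inside the limit, 41 of the 45 control peaks of 1999 bases were lost. Just outside, 25 of the 31 peaks of 2199 bases were lost. Together the short lost peaks covered 346.6 kb, which was 6.30% of the bases covered by control peaks. Peaks narrower than any control peak occurred in both other lists, 109 with EZHIP and 59 with H3.3 K27M. The narrowest peak was 399 bases in each of these lists and 1199 in the control list, and the smallest gap between peaks was 8401, 8201 and 5201 bases in the EZHIP, H3.3 K27M and control lists. The 399 bases and all 3 gaps lie below the call settings given in the methods, and whether all lists were called alike is not known, so lost and kept describe these lists as deposited.

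For most short lost peaks, no peak of the other lists was close by. The median distance to the nearest EZHIP or H3.3 K27M peak was 1823 kb, and 16 of the 221 had one within 50 kb. There were 3 borderline cases, named after their values were seen. Counted from the end as listed, an EZHIP peak lay 1 base from the peak at the start of Ppm1e, which encodes a protein phosphatase, and another lay 1 base from the peak in an intron of Alox8, a lipoxygenase gene, and both pairs would adjoin if the end belongs to the peak. An H3.3 K27M peak lay 0.401 kb from the peak in an intron of AI854517. Without these 3 the set would hold 218 peaks.

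Most short lost peaks lay over CpG-rich sequence. Islands were defined here from the sequence, as windows of 500 bases in which 55% or more of the bases were G or C and the CpG ratio (explained in the next paragraph) was 0.65 or more. An island overlapped 194 of the 221 short lost peaks, or 87.8% (95% Wilson interval 82.8 to 91.5). By comparison, 1.84% of all genome windows of the median peak width, 1599 bases, held an island, and 53.3% of windows of that width centred on protein-coding gene starts did. The share was 92.1% in wider lost peaks and 92.9% in kept peaks. The difference from wider lost peaks was -4.30 percentage points (Newcombe interval -9.88 to 0.85), an interval that includes 0, and that from kept peaks was -5.15 points (-10.7 to -0.068), although a wider peak has more room to touch an island. The direction against kept peaks turned with the criteria. Under stricter ones, 60% G and C and a ratio of 0.75, an island overlapped 85.1% of short lost and 83.5% of kept peaks, a difference of 1.57 points (-4.95 to 7.76). In the central 1200 bases alone the shares were 87.3% and 54.2%, a difference of 33.1 points (25.6 to 39.9), but those bases are most of a short peak and a small part of a wide one. In kept peaks under 2000 bases the share was 76.5% (52.7 to 90.4), an interval that includes that of short lost peaks. Intervals in this text cover counting over peaks only, and neighbouring peaks are not fully independent.

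The observed to expected CpG ratio compares the number of CpG sites with the number that the C and G content alone would give, and most of the mouse genome lies far below 1. The median ratio of short lost peaks was 0.77 (interval 0.74 to 0.79), with quartiles of 0.62 and 0.85. It was 0.60 (0.56 to 0.62) in wider lost peaks and 0.51 (0.50 to 0.53) in kept peaks. Nothing is read from this order, because the rule splits the sets by width, with medians of 1599, 3599 and 9399 bases, and a ratio over a whole peak also takes in what lies beside an island. The 17 kept peaks under 2000 bases had a median of 0.78 (0.62 to 0.86). Windows at protein-coding starts had a median of 0.50, those of them with an island 0.69, and all genome windows 0.16. The median G and C content was 61.4% in short lost peaks, 54.95% in wider lost peaks and 50.03% in kept peaks, with the same limit, and 57.9% (52.1 to 60.9) in the kept peaks under 2000 bases.

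The densest parts of the peaks were closer to each other. The densest 500 bases of short lost peaks held a median of 61 CpG sites (interval 55 to 66). In wider lost peaks they held 57 (54 to 59) and in kept peaks 59 (57 to 62), and these intervals overlap. The median ratio in those 500 bases was 0.93, 0.92 and 0.94 in the same order. The longest island touched had a median length of 1600 bases in short lost peaks (1500 to 1700), 1500 in wider lost peaks (1400 to 1600) and 1600 in kept peaks (1500 to 1700), against 900 over all 18335 islands. A wide peak offers more windows from which the densest is taken, and this was not corrected for.

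**Figure D1:**
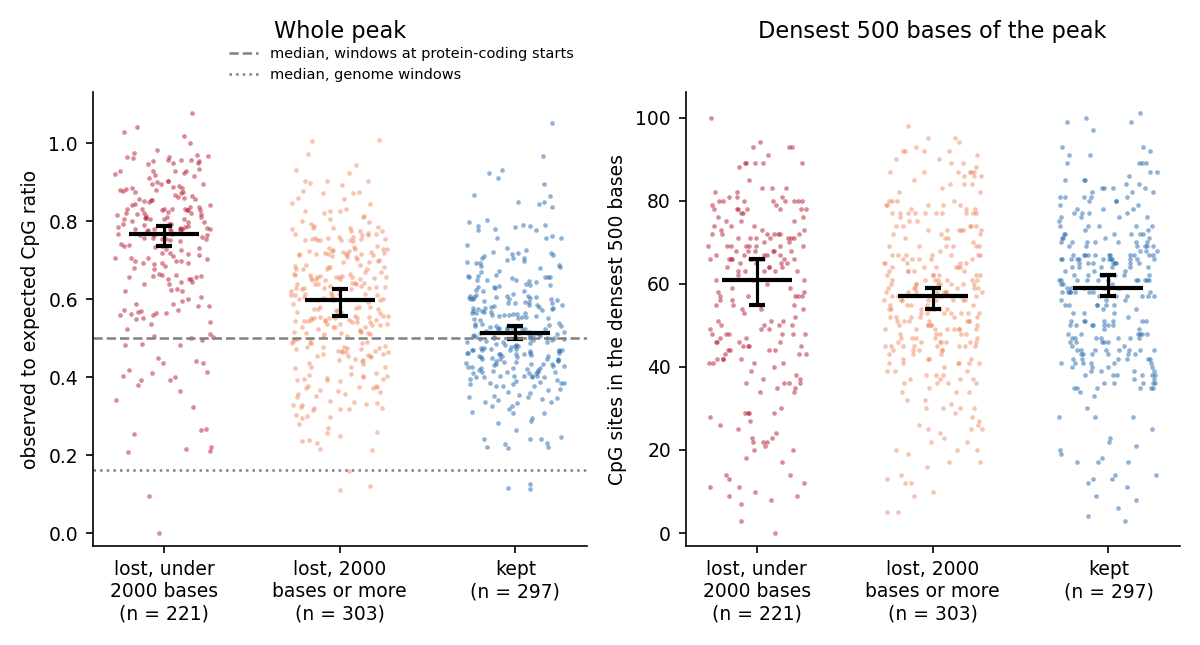
Observed to expected CpG ratio of each control RING1B peak (left) and number of CpG sites in its densest 500 bases (right), for short lost peaks (n = 221), wider lost peaks (n = 303) and kept peaks (n = 297). Points are peaks, black bars are medians with 95% intervals and grey lines are medians of background windows. The whole-peak medians are 0.77, 0.60 and 0.51 in sets that also differ in width by the rule (kept peaks under 2000 bases have 0.78), and the medians on the right lie between 57 and 61.

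Short lost peaks were further sorted by where they lay in the GENCODE vM1 gene annotation. A gene start lay in 125 of the 221. Of the rest, 64 overlapped an exon without a gene start, 12 lay in introns only and 20 lay between genes. The CpG ratio differed between these places. Its median was 0.79 (interval 0.78 to 0.82) at gene starts and 0.75 (0.69 to 0.80) in exons. It was 0.39 (0.22 to 0.71) in introns and 0.50 (0.39 to 0.76) between genes, where few peaks were available. The ratio was under 0.25 in 6 of the 221 and at least 0.6 in 169.

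The peaks at either end of the CpG range are named here with their place in the annotation. The 3 highest ratios were 1.08 at the start of Tle4, 1.04 in an exon of Camta1, which encodes a calmodulin-binding transcription activator, and 1.03 at the start of Tnrc6c, which encodes a protein of microRNA silencing. The 3 lowest were 0 in the BC023719 intron, 0.096 in the Alox8 intron and 0.21 in a peak over exons of F8 or Gm6039 on the X chromosome. In the BC023719 intron 83.3% of words of 32 bases recurred elsewhere in the genome, in the F8 and Gm6039 peak 79.2% and in the Alox8 peak 40.6%. How reads from such words were placed was not tested. The 3 peaks around the median lay beside Slc9a2, a sodium and proton exchanger gene (0.77), in Vldlr (0.77) and at the start of Flt1, a receptor of vascular endothelial growth factor (0.77).

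**Figure D2:**
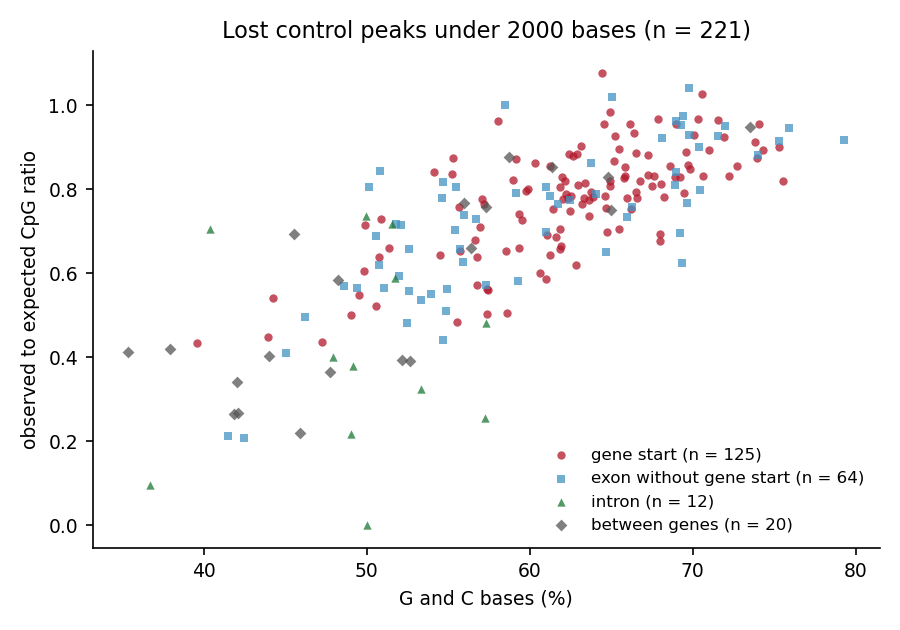
G and C content against observed to expected CpG ratio of the 221 short lost peaks, with a symbol for each place in the gene annotation. Peaks at gene starts (n = 125) lie toward the upper right, with a median ratio of 0.79, and most of the low values come from introns (n = 12) and from between genes (n = 20).

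A gene start was less often found in short lost peaks than in wider ones. Starts lay in 56.6% of them (interval 49.97 to 62.9), in 69.97% of wider lost peaks and in 79.5% of kept peaks. The differences were -13.4 points (-21.6 to -5.07) and -22.9 points (-30.7 to -14.8). Width enters directly here. Within 5000 bases of the peak the shares were 84.2%, 84.5% and 84.5%, with differences of -0.33 points (-6.83 to 5.85) and -0.35 points (-6.87 to 5.86). Counted in the central 1200 bases alone, the order turned, with 47.5% of short lost peaks, 22.8% of wider lost peaks and 17.8% of kept peaks, although the centre of a wide peak need not be the place of its strongest signal. In kept peaks under 2000 bases it was 41.2% (21.6 to 64.0), an interval that includes the share of short lost peaks.

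The starts in short lost peaks were mostly those of protein-coding genes. Of 144 starts, 126 belonged to protein-coding genes, 5 to long intergenic non-coding RNAs, 5 to processed transcripts, 4 to pseudogenes, 1 to a polymorphic pseudogene and 3 to microRNAs. A single start lay in 106 peaks and 2 starts in 19. In 16 of those 19 the starts were on opposite strands. The 3 with the highest CpG ratio among the 19 were the peaks of C2cd4b with M5C1000I18Rik (0.96), of Ccni, a cyclin gene, with 2010109A12Rik (0.93), and of Mgll, which encodes monoacylglycerol lipase, with the non-coding Gm16628 (0.93). Reads of this assay carry no strand, so a peak over 2 starts cannot be assigned to either gene.

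Short lost peaks were centred downstream of the gene start, inside the gene. Among the 108 peaks with exactly 1 protein-coding start, the centre lay a median of 275 bases downstream (interval 158 to 362), with quartiles of 35.8 and 483 bases downstream, and it was downstream in 84 of the 108, or 77.8% (69.1 to 84.6). Of the 96 peaks without a gene start, 41 had their centre at most 2000 bases downstream of a protein-coding start and 7 at most 2000 bases upstream. In 45 of the 64 exon peaks the nearest start lay within 5000 bases upstream of the centre, at a median of 1277 bases. Nothing is read from that side, because a peak over an exon but not the start lies downstream of its gene's start by the sorting. Among the 96, 35 lay over 10000 bases from any protein-coding start.

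**Figure D3:**
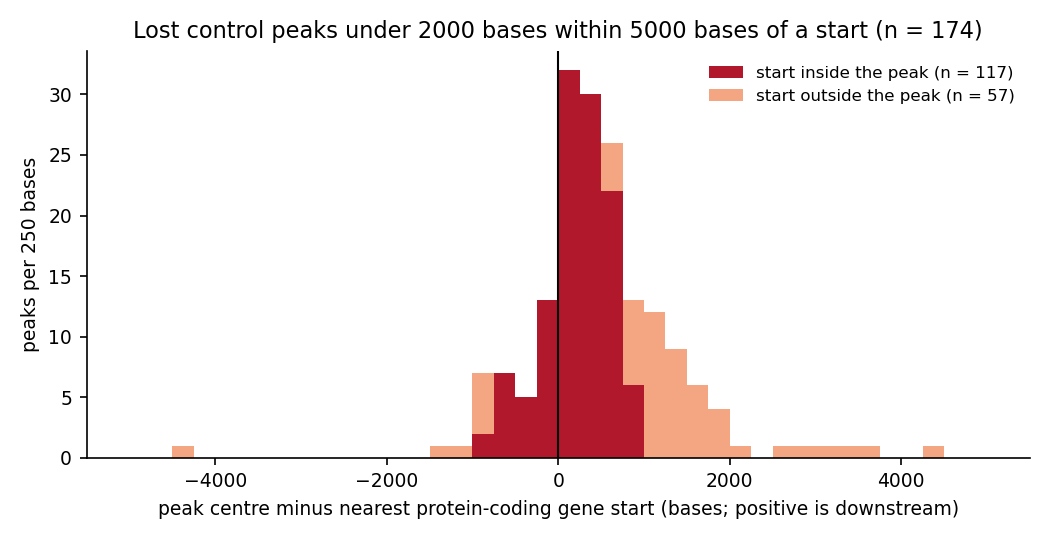
Position of the peak centre relative to the nearest protein-coding gene start, in bins of 250 bases, for the 174 short lost peaks within 5000 bases of a start. Positive values are downstream, and colours separate peaks that hold the start (n = 117) from those that do not (n = 57). The centre is downstream in 139 of the 174, a count that includes 45 exon peaks without a start, whose side follows from the sorting. Among peaks with exactly 1 protein-coding start inside it is downstream in 84 of 108.

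Genes were next grouped into 17 classes by patterns in the gene symbol. Such patterns miss some genes that belong to a class, so counts and shares are those of the patterns. Few gene starts in short lost peaks belonged to developmental transcription factors. Over the 6 classes of such factors (homeobox, forkhead, SOX and T-box, GATA and developmental zinc finger, bHLH, nuclear receptor and other factors), 2 of the 126 protein-coding starts belonged to them, or 1.59% (0.436 to 5.60). Among all 22350 protein-coding genes the share was 2.91%, which lies within that interval. In wider lost peaks it was 18.3% (40 of 219 starts) and in kept peaks 60.1% (172 of 286). The differences were -16.7 points (-22.4 to -10.6) and -58.5 points (-64.2 to -51.5). Starts in 1 peak, such as those of a Hox cluster, are not independent of each other, but counted by peak the order was the same, at 2 of 221, 37 of 303 and 146 of 297. The rule splits the sets by width, and a wider peak has more room for a start, so width enters this order. In the kept peaks under 2000 bases the count was 2 of 17 (11.8%, 3.29 to 34.3).

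The pair of factors with a start in a short lost peak were Hoxd8 and Hoxd3, homeobox genes that pattern the body axis and limbs. The Hoxd8 peak, chr2:74542601-74544599, had a CpG ratio of 0.98, and its centre lay 928 bases downstream of the start. The Hoxd3 peak, chr2:74549801-74550999, had a ratio of 0.71. The space between them was 5.20 kb. Forkhead, SOX and T-box, GATA and zinc finger, bHLH and nuclear receptor classes each had 0 of 126 starts, which allows a share of up to 2.96% at the upper Wilson bound.

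Some transcription factor genes had a short lost peak beside, not over, their start. Within 5000 bases of a short lost peak, starts of developmental factors were found for 11 of 221 peaks (4.98%, interval 2.80 to 8.69). The shares were 16.2% of wider lost and 50.8% of kept peaks, with the same limit of width. Beyond Hoxd8 and Hoxd3 these were Lbx2, Nkx1-2, Pou4f2, Foxe3, Gata2, Bhlhe23, Ebf2, Tox and Irf8. In all but Irf8 the centre of the peak lay downstream of the start, by 1219 bases at Nkx1-2, 1403 at Tox, 1456 at Foxe3, 1750 at Pou4f2, 1804 at Bhlhe23, 1841 at Lbx2, 2171 at Ebf2 and 5515 at Gata2. At Irf8, a factor of myeloid cells, it lay 757 bases upstream, and the peak ended 59 bases before the start.

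The other classes had between 0 and 7 starts. Solute carriers and transporters had the most starts, 7 of 126 or 5.56% (2.72 to 11.0), against 2.18% of all protein-coding genes, 3.20% of starts in wider lost peaks and 0.70% in kept peaks. They were Slc22a23, Atp1b1, a sodium pump subunit, Slc38a1, a glutamine transporter, Slc35d3, Slc6a4, the serotonin transporter, Atp8b1, a phospholipid flippase, and Atp7b, a copper transporter. Their CpG ratios ran from 0.55 at Atp7b to 0.86 at Slc22a23. The interval of this share includes that of wider lost peaks.

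Developmental signalling had 4 starts, or 3.17% (1.24 to 7.88), against 0.89% of all genes, 4.57% of starts in wider lost peaks and 1.75% in kept peaks. They were Acvr2b, an activin receptor (CpG ratio 0.85), Fgfbp3, which binds fibroblast growth factors (0.82), Nrg4, a ligand of an ErbB receptor (0.81), and Igfbp5, an insulin-like growth factor binding protein (0.57). Starts of the Wnt pathway genes Axin2 and Frat2 also lay in short lost peaks, but no symbol pattern held them. The guidance and adhesion, ion channel, and extracellular matrix and protease classes had 2 starts each, or 1.59% (0.436 to 5.60), against 0.89%, 1.34% and 1.04% of all genes, which all lie within that interval. Guidance and adhesion had Unc5b, a netrin receptor (0.97), and Cdh11, a cadherin of mesenchymal cells (0.62). The ion channel class had the potassium channels Kcna7 (0.86) and Kcna3 (0.65). Extracellular matrix and proteases had the metalloprotease Mmp17 (0.83) and the collagen Col14a1 (0.50).

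Of the remaining classes, G-protein-coupled receptors and neuropeptides had 1 start by symbol, Adrb1, the beta-1 adrenergic receptor (0.93). This was 0.79% of starts against 8.15% of all genes, a class that includes the olfactory receptors. The start of Gcgr, the glucagon receptor gene, also lay in a short lost peak, but no symbol pattern held it. Constitutive genes also had 1, Eif4a3, a helicase of the exon junction complex (0.84), against 1.83% of all genes. Germ cell, histone, cell-cycle inhibitor and Polycomb classes had 0, against 0.68%, 0.36%, 0.031% and 0.17% of all genes. No class was assigned to 105 of the 126 starts, or 83.3% (75.9 to 88.8), compared with 79.5% of all protein-coding genes, 64.4% in wider lost peaks and 33.6% in kept peaks. Whether these genes changed in expression was not tested.

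**Figure D4:**
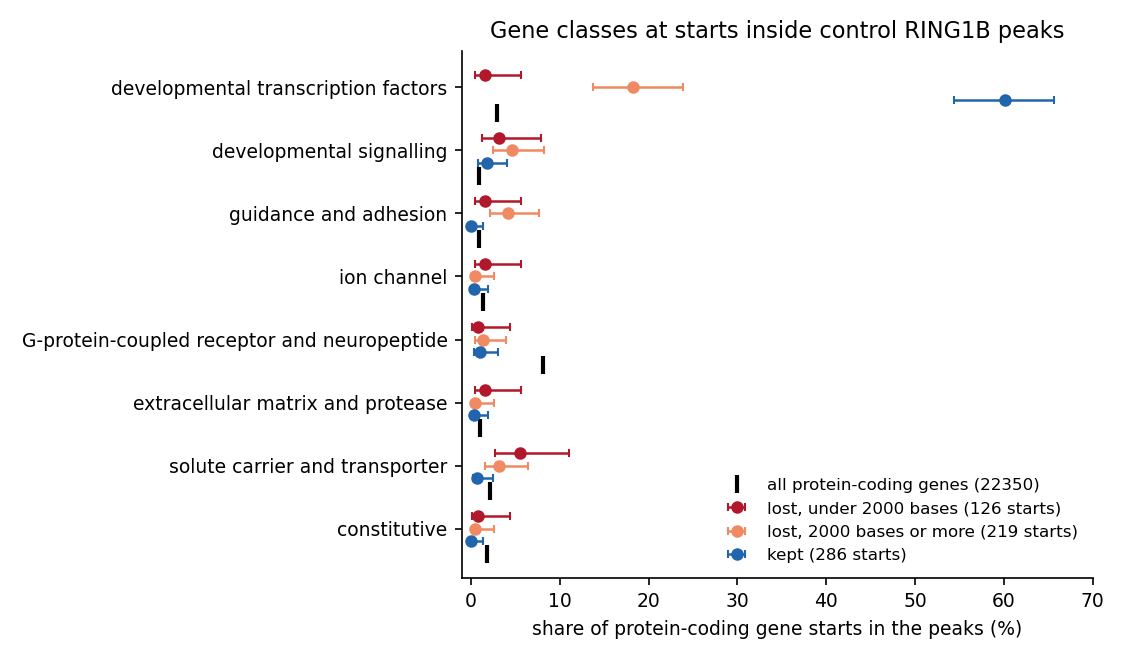
Share of protein-coding gene starts in each class for short lost peaks (126 starts), wider lost peaks (219) and kept peaks (286), with 95% Wilson intervals, and for all 22350 protein-coding genes (black ticks). Developmental transcription factors take 1.59%, 18.3% and 60.1% of starts, in sets that also differ in width by the rule. The other classes stay below 6% in all 3 sets.

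The distance from each short lost peak to the nearest control peak of at least 10000 bases was measured. The smallest gap between control peaks was 5201 bases, and the caller joins signal across gaps. Narrow signal on the immediate flank of a wide peak may thus be part of that peak and cannot be seen here. The median distance was 4659 kb (interval 3470 to 6023), compared with 3701 kb (3091 to 4810) for wider lost peaks and 3432 kb (2071 to 4697) for kept peaks, with intervals that overlap. All islands had a median of 6023 kb and all protein-coding starts 6503 kb. Here and below, both include those inside a wide peak, where no short lost peak can lie, so they are not a like background. A wide peak lay within 100 kb of 15 short lost peaks, or 6.79% (4.16 to 10.9), against 5.33% of islands and 2.34% of protein-coding starts. The share was 9.57% for wider lost peaks and 11.4% for kept peaks. Within 1 Mb the shares were 17.2% (12.8 to 22.7), 23.8% and 31.0%, against 16.5% of islands and 13.3% of protein-coding starts. The difference from wider lost peaks was -6.57 points (-13.3 to 0.52), an interval that includes 0, and that from kept peaks was -13.8 points (-20.8 to -6.34). Another control peak of any width lay within 100 kb of 19.5% of them, a difference of -12.6 points (-19.7 to -4.96) from wider lost peaks and of -9.84 points (-17.0 to -2.31) from kept peaks. Within 20 kb the share was 9.05%, and the differences of -3.49 points (-8.72 to 2.08) and -3.41 points (-8.67 to 2.17) had intervals that include 0.

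The 15 peaks near a wide peak included 3 of the 11 with a developmental factor start within 5000 bases, namely Hoxd8, Hoxd3 and Lbx2. The nearest was the Hoxd8 peak, 5.20 kb from a control peak of 53399 bases that held the starts of Evx2 and Hoxd13 to Hoxd9. Hoxd3 lay 12.4 kb from the same peak. Next came a peak in an exon of Prdm12, 7.80 kb from a peak over the start of that gene, and the Lbx2 peak, 8.80 kb from a peak over Tlx2 and Pcgf1. Other short lost peaks lay 18 kb from the Dmbx1 peak, 31.0 kb from the Uncx peak, and 34.6 and 59.0 kb from a HoxC peak of 103999 bases. The 15 peaks lay near 12 distinct wide peaks, of which all 12 were kept in at least 1 inhibitor list and 11 in both. The remaining one was the Cdx2 peak, 81.8 kb from the peak at the start of Flt3, which overlapped an H3.3 K27M peak only. Over all 159 control peaks of at least 10000 bases, 88.7% were kept in at least 1 list and 67.9% in both.

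The short lost peaks farthest from a wide peak lay at Kcna7 (86020 kb), beside B630019K06Rik on the X chromosome (82050 kb) and in Bcor, which encodes a PRC1-associated co-repressor, also on the X chromosome (78870 kb). These 3 had CpG ratios of 0.86, 0.80 and 0.93, all above the median of the set.

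**Figure D5:**
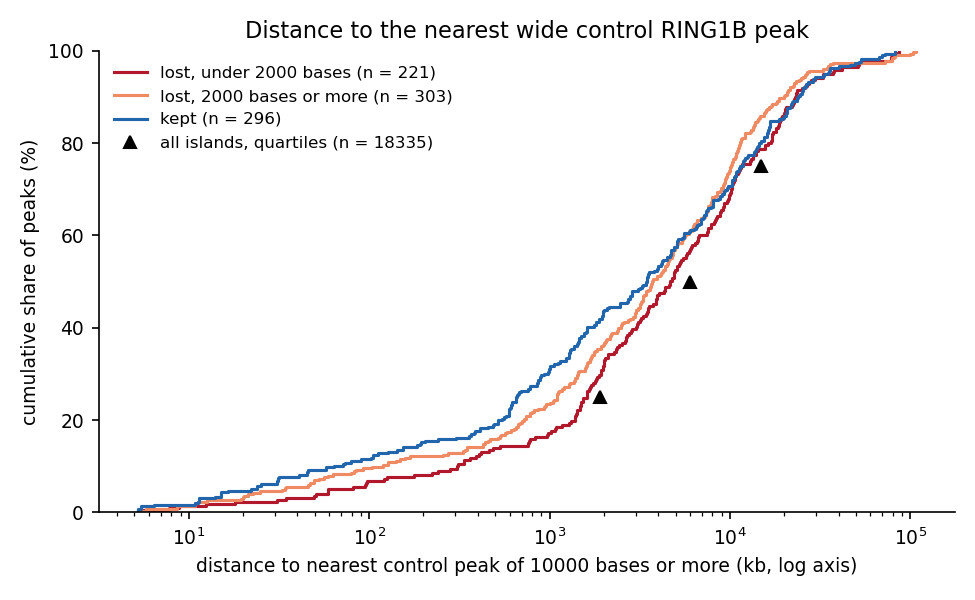
Cumulative share of control peaks by distance to the nearest other control peak of at least 10000 bases, on a log axis in kb. Lines are short lost, wider lost and kept peaks (n = 221, 303 and 296, 1 kept peak having no other wide peak on its chromosome). Triangles are the quartiles of all 18335 islands, including those inside wide peaks. The line of short lost peaks lies lowest at 100 kb and at 1 Mb, and reaches 50% at 4659 kb.

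Motifs were counted on both strands as a description of the sequence. GGGCGG, the GC box, was found in 88.7% of short lost peaks, compared with 64.1% of windows of 1599 bases at protein-coding starts, 93.6% of those start windows that held an island and 12.9% of all genome windows. TTCCCGC, an E2F site, was found in 34.8%, compared with 18.9%, 30.4% and 3.03%. CACGTG, an E-box, was found in 25.3%, compared with 24.0%, 29.6% and 14.6%. GAGAG was found in 98.2% and in 97.6% of all genome windows. CG itself was found in 220 of the 221, the exception being the BC023719 intron printed above. For the GC box, the E2F site and the E-box the share lay nearer to that of start windows with an island than to that of genome windows.

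The 17 control peaks under 2000 bases that were kept give the closest comparison in width. Of these, 16 overlapped an EZHIP peak and 1 an H3.3 K27M peak, and none overlapped both. The overlapping peak was narrower than the control peak in 16 of the 17, with a median of 399 bases, and it was wider only at Rundc3b, where the EZHIP peak spanned 3199 bases. A gene start lay in 8 of the 17, or 47.1% (26.2 to 69.0), and an island in 13, or 76.5% (52.7 to 90.4). Both intervals include the shares of short lost peaks. Other shares lay further apart, over few peaks. A start of a developmental transcription factor lay in 2 of the 17, or 11.8% (3.29 to 34.3), and was the nearest protein-coding start in 5, or 29.4% (13.3 to 53.1), and neither interval includes the share of short lost peaks, 0.90% and 8.14%. A gene start within 5000 bases was found for 10, or 58.8% (36.0 to 78.4), below the 84.2% of short lost peaks. The median CpG ratio was 0.78 (0.62 to 0.86), against 0.77 in short lost peaks.

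The 8 starts were those of Ica1l (CpG ratio 0.93), Rundc3b (0.86), Tril with Gm16499 (0.84), Hey2, a Notch target of the bHLH class (0.78), Ybx2, a germ cell protein (0.80), Ccdc85c (0.91), Fzd3, a Wnt receptor (0.97), and Rfx2, a factor of ciliated and germ cells (0.79). The peak at Tril was the one that overlapped an H3.3 K27M peak. The other 9 lay nearest to Pmepa1 (0.22), Ndn (0.23), Prdm1 (0.76), Fam169a (1.05), Foxd1 (0.76), Gpr84 (0.62), Foxp4 (0.63), Acer1 (0.11) and Myof (0.22). A CpG ratio under 0.25 was thus found in 4 of the 17.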

How the data were processed

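The RING1B ChIP-Seq peak lists came from MEFs of 3 groups (control, EZHIP, H3.3 K27M), with 1 library each. Per the study's methods, the authors aligned reads to mm9 with bowtie1 at default parameters (Bowtie 1.0.0 in the submitters' processing notes, which also name deepTools) and called broad peaks with MOSAiCS-HMM, with a stated minimum size of 1000 bases and maximum gap of 10000 bases. The EZHIP and H3.3 K27M lists hold peaks below that size, and all 3 lists hold gaps below that gap. Each deposited list gives peaks by chromosome, start and end, in bases, with no signal, score or count. Width was taken as end minus start, and positions are printed 1-based. A larger depth or a looser call could give more narrow peaks, so differences between lists are differences between these libraries and calls. No per-sample column was left out.

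The 221 peaks and the 17 gene classes were chosen with earlier results of these data known. For each of the 37252 genes of GENCODE vM1 on NCBIM37, the start was its 5′ end, and islands were computed from the sequence in windows of 500 bases moved by 100 bases. Distances ran between the nearest ends of peaks. Repeated sequence was the percentage of words of 32 bases, taken every 50 bases, found more than once in the genome. Shares carry Wilson intervals, differences Newcombe intervals and medians order-statistic intervals, all at 95%. No p-value was computed, because peaks of a library are not replicates. Named peaks were up to 6 of each gene class with the highest CpG ratio, the 3 highest, 3 middle and 3 lowest ratios, the 3 nearest to and 3 farthest from a wide peak, the 3 with the most gene starts, and all kept peaks under 2000 bases. Other peaks were named after their values were seen. Code used scipy 1.17.1, numpy 2.4.6, numba 0.67.0, pandas 2.3.3 and matplotlib 3.10.9 under Python 3.11.15, and was tested on simulated sequence and intervals.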

Additional observations from a re-analysis of the deposited data

How the results depend on the processing

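With 1 library per group, no replicate could be left out and nothing measures the spread between libraries. No paired analysis was possible because each group held 1 sample and no test over samples was made. The 6 main values were recomputed under 39 alternatives, of which 28 stayed within the interval of the value (within 1.5 times for the number of peaks) and 11 did not. The number of lost peaks, 221, was 143 with a limit of 1600 bases and 347 with a limit of 3000 bases, by construction, and 235 when an overlapping peak had to span at least 1000 bases. It was 180 when the end was counted as part of the peak, an alternative chosen after seeing the data for all 6 values, which were then 58.9% with a gene start, 87.8% with an island, a median CpG ratio of 0.78, a median distance of 4823 kb and 0.56% with a developmental factor start. The share with a gene start, 56.6%, was 79.2% within 1000 bases, 84.2% within 5000 bases and 67.9% with the starts of all transcripts. The share with an island, 87.8%, was 95.02% with windows of 200 bases, 50% G and C and a ratio of 0.6. The median CpG ratio, 0.77, was 0.73 with a limit of 3000 bases and 0.93 in the densest 500 bases. The median distance to a wide peak, 4659 kb, was 2196 kb when wide meant 5000 bases and 11370 kb when it meant 20000 bases. The share with a start of a developmental transcription factor, 0.90% of peaks, was 4.98% within 5000 bases and 2.88% with a limit of 3000 bases.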

Other observations

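The X chromosome held 13 of the 221 short lost peaks, or 5.88% (95% Wilson interval 3.47 to 9.80). It also held 4.17% of protein-coding gene starts, a share that lies within that interval, 7 of 303 wider lost peaks (2.31%) and 7 of 297 kept peaks (2.36%). The difference from wider lost peaks was 3.57 points (Newcombe interval 0.18 to 7.67) and that from kept peaks was 3.52 points (0.10 to 7.63). The peaks, looked at after the gene classes, included the starts of Usp9x, a deubiquitinase, Ddx3x, an RNA helicase, and Msn, which encodes moesin, and exons of Stag2, a cohesin subunit, of Mbnl3, a splicing regulator, and of Tsc22d3. The CpG ratios of the 13 ran from 0.21 over F8 and Gm6039 to 0.95 at Tsc22d3. Of the 13, 4 were made mostly of repeated words. They lay at Zxdb, a zinc finger gene, and at its neighbour Zxda, annotated as a pseudogene (100% of words in each), at Pabpc1l2a-ps (100%) and over F8 and Gm6039 (79.2%). Their part in the share on the X chromosome was not tested.

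Over all short lost peaks, 175 of the 221 held no repeated word and 6 were made of over 50% repeated words. The other 2 of these 6 were the BC023719 intron (83.3%) and a peak in an exon of Ppp4r2 (66.7%), with CpG ratios of 0 and 0.21. By chromosome, chromosome 5 held the most short lost peaks, 24, followed by chromosomes 8 and 9 with 19 each, and chromosomes 12 and 18 held 3 each.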
